A study of Mus musculus with 37 samples.

Results

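The genes described are the sirtuins Sirt1, Sirt2, Sirt3, Sirt5, Sirt6 and Sirt7, the enzyme gene Nampt and the transcription factor genes Foxo1 and Foxo3. They were chosen by name, and every probe set that the platform annotation gives one of these symbols was used. Of the 9 genes, 7 had probe sets, 13 in all, among the 12393 genes and 22626 probe sets of the table. Sirt5 and Sirt6 had none under their symbols and were not analysed here. All animals were female C57BL/6 mice, 9 weeks old at the start, with food intake, weight and activity recorded over 6 weeks. CR+EX mice were under 30% calorie restriction with a running wheel (9 animals), CR mice were under the same restriction without a wheel (9 animals), AL+EX mice ate freely and had a wheel (9 animals), and AL mice ate freely without one (10 animals). Restricted mice got 70% of the calories and all other nutrients of AL mice. Total RNA was taken from thoracic mammary glands, left and right pooled, and each array was read as 1 animal.

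Nampt makes nicotinamide mononucleotide, the rate-limiting step by which cells recycle nicotinamide into NAD. Sirtuins use up NAD as they remove acetyl and related groups from proteins, so their activity is tied to its supply. Foxo1 and Foxo3 are held in the cytoplasm when insulin signalling through Akt phosphorylates them, act on genes of stress resistance and fuel use when it falls, and are deacetylated by Sirt1. In fat tissue Foxo1 also controls fat cell differentiation and lipolysis. The core clock activators drive Nampt transcription in a daily rhythm.

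Under calorie restriction Nampt rose and Foxo3 fell, each on 1 of its probe sets, while no sirtuin and no Foxo1 probe set passed the test. Nampt was 1.24-fold higher in the 18 restricted than in the 19 unrestricted glands (log2 difference 0.30 ± 0.08). Its adjusted p was 0.013 over genes, of which 8.75% passed. The Foxo3 probe set 1434832_at was 1.26-fold lower (-0.34 ± 0.09, adjusted p = 0.017 over all probe sets, of which 4.68% passed). In the fit over genes, which took the brightest probe set of each, Foxo3 did not pass (adjusted p = 0.14). No member passed in a contrast between wheel and no wheel.

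The promoter sequences of the 2 genes with a probe set that passed are shown with that of Sirt1. Among the members, only Sirt1 held the clock's E-box in the 250 bases searched, and bases farther from the start were not searched. Each run is the 250 bases before the RefSeq start of the gene (GRCm38.p6), read 5′ to 3′ along the gene. Nampt lies on the plus strand at chr12:32820085-32820334, and Foxo3 and Sirt1 on the minus strand at chr10:42276696-42276945 and chr10:63339036-63339285. Capitals mark the E-box CACGTG, the core AGGTCA of the ROR element and the GC box GGGCGG on either strand.
Nampt: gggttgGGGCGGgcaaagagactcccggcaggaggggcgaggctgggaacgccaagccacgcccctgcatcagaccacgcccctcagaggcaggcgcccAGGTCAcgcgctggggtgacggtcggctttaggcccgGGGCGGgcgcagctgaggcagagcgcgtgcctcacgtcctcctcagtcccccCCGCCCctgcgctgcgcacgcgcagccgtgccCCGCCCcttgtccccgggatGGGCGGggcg
Foxo3: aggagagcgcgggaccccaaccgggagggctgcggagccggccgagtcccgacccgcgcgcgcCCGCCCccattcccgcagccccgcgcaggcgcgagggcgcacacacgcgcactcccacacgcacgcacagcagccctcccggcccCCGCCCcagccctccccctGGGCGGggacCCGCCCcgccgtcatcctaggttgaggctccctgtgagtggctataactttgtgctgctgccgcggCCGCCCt
Sirt1: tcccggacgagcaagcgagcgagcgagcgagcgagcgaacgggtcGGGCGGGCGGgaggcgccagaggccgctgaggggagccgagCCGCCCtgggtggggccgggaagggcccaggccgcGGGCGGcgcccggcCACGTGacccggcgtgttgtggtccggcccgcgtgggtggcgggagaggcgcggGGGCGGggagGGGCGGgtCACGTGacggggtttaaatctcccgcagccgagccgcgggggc
In all, 5 motifs were searched on both strands. No motif overlapped one of another kind in these 3 sequences, and 2 GC boxes of Sirt1 overlapped each other. The E-box CACGTG, to which the core clock activators bind, lay at 2 places in the Sirt1 promoter, against 6.02% of all 32851 promoters with at least 1. The letters AGGTCA lay once in the Nampt promoter, 151 to 146 bases before the start, and at 2 places in that of Sirt5. They were in 2 of the 11 member promoters and in 14% of all promoters. They are only the core of the ROR element, which the clock repressor Nr1d1 and its activating rivals bind. The flanking bases of that element were not searched for. The GC box GGGCGG lay at 5 places in the Nampt promoter, 5 in Foxo3 and 6 in Sirt1, and in 32.7% of all promoters. The FoxO motif GTAAACA (3.17% of all promoters) and the D-box TTATGTAA (0.819%) were in none of the 11 promoters of the 9 members. A match in these letters is a description of the window and not a site shown to be bound.

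Library checks bear on several results below. The mean over 11 B lymphocyte markers split the arrays into 22 with 6.88 or less on the log2 scale and 15 with 7.69 or more. Those 15 were 3 CR+EX, 4 CR, 4 AL+EX and 4 AL animals and included all 8 arrays of the fourth of the 4 runs of animal numbers. The control ratio of Gapdh 3' to 5' signal was above 2 on 5 arrays, 2 CR+EX and 3 AL, of which 4 lay in run 1. The fat cell gene Adipoq had signals of 12687 to 30960 and the luminal keratin gene Krt18 of 824 to 7221, so both tissue components were present on every array. The 8 skeletal muscle markers had a mean of 13.2 to 15.2 on the log2 scale over the arrays, with 0 of 8 past the test under restriction, so muscle RNA was present in all groups. Of the other lists, restriction raised Retn and lowered Lep among 8 adipocyte markers, and raised Cd163 among 8 macrophage and Pcolce among 8 fibroblast markers. The T lymphocyte (4 tested), basal epithelial (7), endothelial (8) and skin (4) lists had 0. In whole glands, fewer cells of a type and less RNA per cell cannot be told apart.

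The first comparison asks what restriction did regardless of the wheel. In that contrast 813 of 9295 genes (8.75%) passed the test, 389 higher (4.19%) and 424 lower (4.56%). Of the 7 members tested, 1 rose and 0 fell in the gene fit, which is near the share of all genes. At an unadjusted p under 0.05 there were 4 of 7 members (Sirt2, Sirt7, Nampt and Foxo3), against 23.9% of all genes. The members had a median log2 difference of -0.11, beside -0.02 over all genes, with 3 higher and 4 lower.

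**Figure D1:**
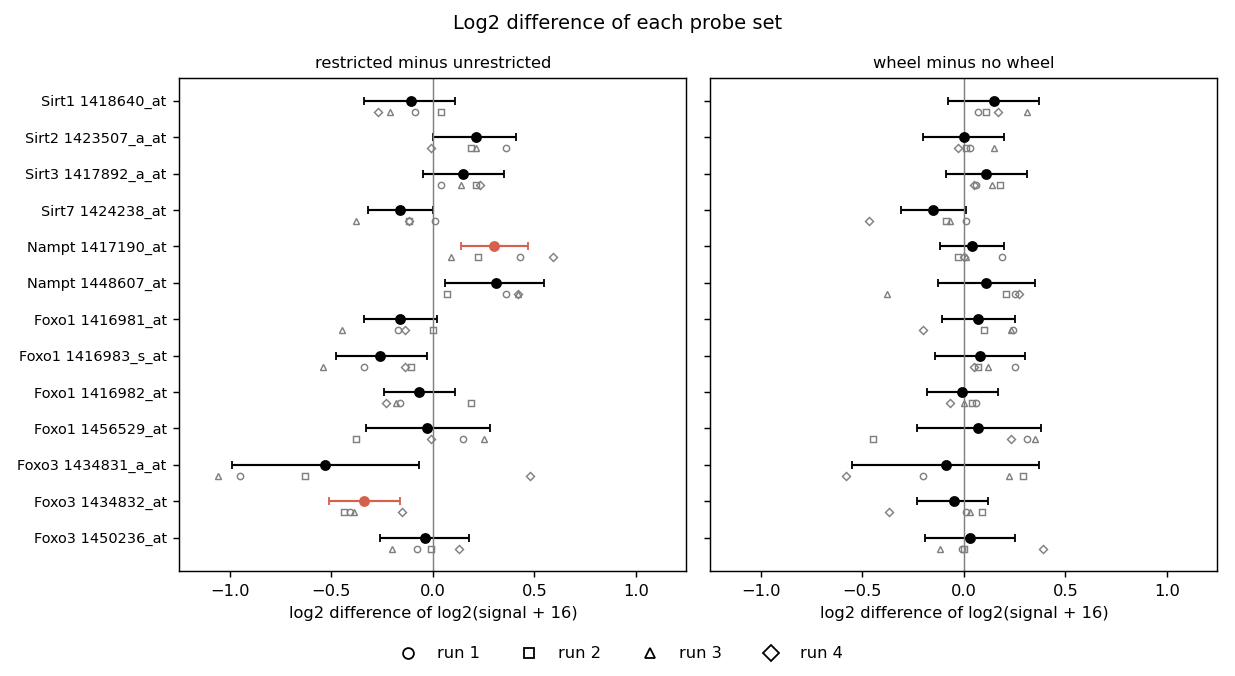
Log2 differences of log2(signal + 16) for the 13 probe sets, restricted minus unrestricted (left) and wheel minus no wheel (right), with 95% intervals from the fit of all probe sets. Red marks an adjusted p under 0.05, and open grey symbols give the value in each run of animal numbers. Only Nampt 1417190_at (0.30) and Foxo3 1434832_at (-0.34) are red, both on the left.

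Nampt was read by a bright probe set, 1417190_at, and a dimmer one, 1448607_at. On 1417190_at the lowest, median and highest signals were 1918, 2623 and 3514 in CR+EX glands and 2113, 2461 and 3046 in CR glands. They were 1641, 2188 and 2349 in AL+EX glands and 1642, 1972 and 2944 in AL glands. All but 1 of the 18 restricted animals lay above the unrestricted median of 2075, and 7 of 19 unrestricted animals lay below every restricted one, though the ranges overlapped. The group means were 11.36 ± 0.27 in CR+EX, 11.29 ± 0.16 in CR, 11.03 ± 0.19 in AL+EX and 11.01 ± 0.29 in AL on the log2 scale (SD, n = 9, 9, 9 and 10). The groups thus fell into a restricted pair and an unrestricted pair whose inner differences were within their spread. CR+EX exceeded CR by 0.07 ± 0.11 and AL+EX exceeded AL by 0.02 ± 0.11.

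The rise on 1417190_at was then read with and without the wheel. CR+EX exceeded AL+EX by 0.33 ± 0.11 (unadjusted p = 0.0064, adjusted p = 0.13), and CR exceeded AL by 0.28 ± 0.11 (unadjusted p = 0.017, adjusted p = 0.22). CR+EX exceeded AL by 0.35 ± 0.11 (adjusted p = 0.13). None of the 3 passed alone. The test of the interaction gave 0.05 ± 0.16 (95% interval -0.27 to 0.37, unadjusted p = 0.75, adjusted p = 1). With the 15 arrays high in B lymphocyte markers left out, CR+EX exceeded AL+EX by 0.17, CR exceeded AL by 0.37, and the interaction was -0.21, none of which passed. By run of animal numbers the averaged difference was 0.43, 0.22, 0.09 and 0.59, higher in all 4 runs.

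**Figure D2:**
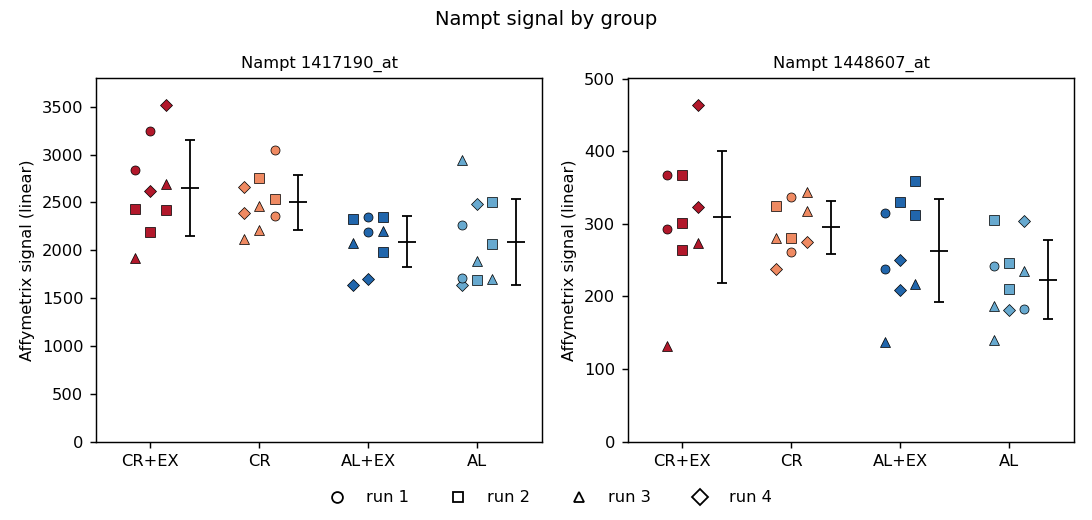
Linear signal of both Nampt probe sets on each array, by group, with symbols for the run of animal numbers and bars for the mean and SD. On 1417190_at the restricted medians are 2623 and 2461, above both unrestricted medians of 2188 and 1972, and the ranges overlap.

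The dimmer probe set 1448607_at gave a difference of the same size without passing (0.31 ± 0.12, 95% interval 0.06 to 0.55, adjusted p = 0.14). Its signals were 131 to 463 in CR+EX glands, 238 to 344 in CR glands, 137 to 358 in AL+EX glands and 140 to 306 in AL glands, with medians of 302, 281, 250 and 223. As on the brighter set, all but 1 of the 18 restricted animals lay above the unrestricted median. The 1 was CR+EX animal 7, at 131, the lowest of all 37 animals. Without that animal this probe set passed (0.37, adjusted p = 0.036), in the only 1 of 37 such fits to do so (adjusted p up to 0.229). With the run as a block it also passed (0.32 ± 0.11, adjusted p = 0.0496), the only 1 of 5 alternative settings in which it did (adjusted p up to 0.475). In that fit 12% of all probe sets passed, against 4.68% without the block. By run the values were 0.36, 0.07, 0.42 and 0.42. On this probe set CR+EX exceeded AL+EX by 0.21 ± 0.17 and CR exceeded AL by 0.40 ± 0.17 (adjusted p = 0.69 and 0.32), with an interaction of -0.20 ± 0.24. The 2 probe sets followed each other across the 37 arrays with a Pearson r of 0.54, and 0.42 once centred on group and run.

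The Nampt call held in 10 of 11 alternative settings and in all 37 fits that left out 1 array. It was lost without the 15 arrays high in B lymphocyte markers, where the difference was 0.27 (adjusted p = 0.096) on 22 arrays.

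Foxo3 had 3 probe sets, of which 1434832_at had the steadier signal. Its lowest, median and highest signals were 397, 482 and 523 in CR+EX glands and 369, 457 and 539 in CR glands. They were 323, 545 and 770 in AL+EX glands and 476, 622 and 807 in AL glands. All 18 restricted animals lay below the unrestricted median of 614, and 13 of 19 unrestricted animals lay above every restricted one. The lowest signal of all belonged to an AL+EX animal of run 4. On the log2 scale the means were 8.92 ± 0.13 in CR+EX, 8.87 ± 0.19 in CR, 9.15 ± 0.40 in AL+EX and 9.31 ± 0.23 in AL (SD).

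The Foxo3 fall on 1434832_at was the 515th smallest p of 22626 probe sets, of which 1060 (4.68%) passed. CR differed from AL by -0.44 ± 0.12 (unadjusted p = 8e-04, adjusted p = 0.10), and CR+EX differed from AL+EX by -0.23 ± 0.12 (unadjusted p = 0.067, adjusted p = 0.46). CR+EX differed from AL by -0.39 ± 0.12 (adjusted p = 0.18). The interaction was 0.21 ± 0.17 (unadjusted p = 0.24, adjusted p = 1), so a difference between the 2 effects was not shown. By run the averaged difference was -0.41, -0.44, -0.39 and -0.15, lower in all 4. The wheel groups alone did not keep that sign: CR+EX against AL+EX gave -0.35, -0.37 and -0.52 in runs 1 to 3 and 0.38 in run 4, while CR against AL gave -0.46, -0.51, -0.25 and -0.68. When the 15 arrays high in B lymphocyte markers were left out, CR+EX differed from AL+EX by -0.48 ± 0.14 (adjusted p = 0.16), CR from AL by -0.43 ± 0.14 (adjusted p = 0.21), and the interaction was -0.04 ± 0.19. With the run as a block CR differed from AL by -0.45 ± 0.12 and passed (adjusted p = 0.024), a contrast in which 3.95% of all probe sets then passed.

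**Figure D3:**
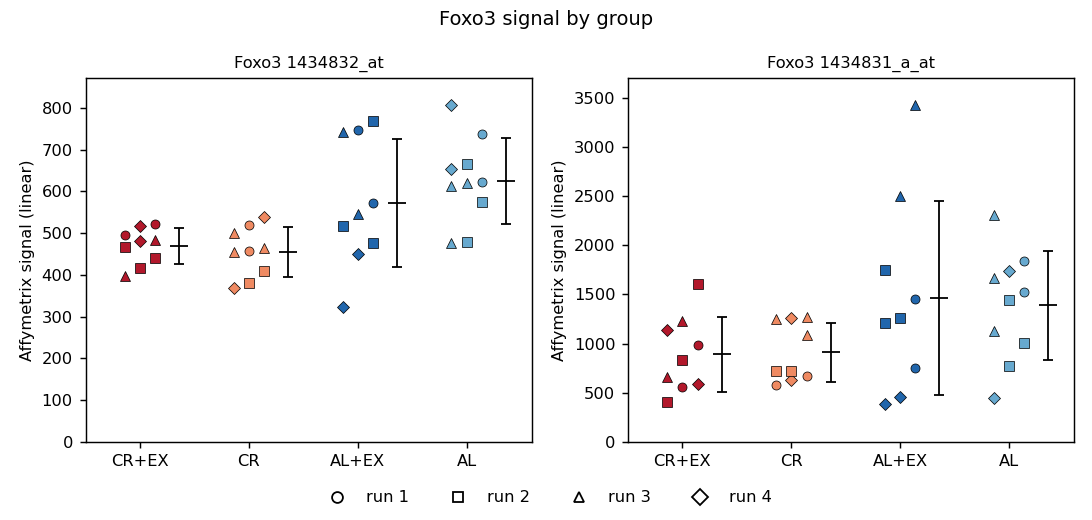
Linear signal of the 2 bright Foxo3 probe sets on each array, by group, with symbols for the run of animal numbers and bars for the mean and SD. On 1434832_at every restricted gland is below the unrestricted median of 614. On 1434831_a_at the unrestricted groups spread from 386 to 3427.

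The brightest Foxo3 probe set, 1434831_a_at, carried the gene in the gene fit and had the same sign with far more spread. Its signals had medians of 830 in CR+EX, 723 in CR, 1264 in AL+EX and 1487 in AL glands. The range was 409 to 1603 in restricted glands and 386 to 3427 in unrestricted glands, and the SD on the log2 scale was 0.62 in CR+EX, 0.47 in CR, 1.03 in AL+EX and 0.69 in AL. The averaged difference was -0.53 ± 0.23 (95% interval -0.99 to -0.07, adjusted p = 0.14 in the gene fit). It was -0.95, -0.63 and -1.06 in runs 1 to 3 and 0.48 in run 4, where all 8 arrays were high in B lymphocyte markers. Without the 15 arrays high in those markers it was -0.88 and passed (adjusted p = 0.0185). The third probe set, 1450236_at, had signals of 8.2 to 45.4, below the level of 88.7 at which genes were left out, and differed by -0.04 ± 0.11. The 2 bright probe sets correlated at 0.45 across arrays (0.37 centred on group and run).

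Luminal epithelial markers had a median difference of -0.33 under restriction, and 0 of 9 passed. Their mean ran from 9.49 to 10.9 in CR+EX (median 10.2), 8.37 to 10.8 in CR (10.3), 8.76 to 11.3 in AL+EX (10.5) and 8.23 to 11.0 in AL (10.7) on the log2 scale. B lymphocyte markers had 0 of 10 past the test and a median difference of -0.41. The part of either list in the Foxo3 difference was not tested. The call on 1434832_at held in all 37 fits without 1 array, and it was lost when each array was centred on its median (-0.28, adjusted p = 0.108).

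Foxo1 had 3 bright probe sets and a dim one, and none passed. The brightest, 1416981_at, had signals of 1302 to 1746 in CR+EX, 1188 to 1595 in CR, 1193 to 2462 in AL+EX and 1275 to 2313 in AL glands. The 6 highest animals were all unrestricted, and below them the groups overlapped. Its averaged difference was -0.16 ± 0.09 (95% interval -0.34 to 0.02, adjusted p = 0.27). The probe set 1416983_s_at was lower by a larger amount, -0.26 ± 0.11 (adjusted p = 0.19), with 17 of 18 restricted animals under the unrestricted median of 1619. With the run as a block it passed (-0.27 ± 0.08, adjusted p = 0.020), a fit in which 12% of all probe sets passed, and in CR against AL it passed too (-0.41 ± 0.11, adjusted p = 0.026). Without the block it was, by run, -0.34, -0.11, -0.54 and -0.14. The third, 1416982_at, differed by -0.07 ± 0.09 and was higher in run 2 (0.19), so the 3 bright sets did not give 1 size. The dim set 1456529_at had signals of 7.1 to 83.6 and a difference of -0.03 ± 0.15.

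The 4 sirtuins measured among the members had 1 probe set each, and no contrast called any of them. Sirt4, which is not a member, was read among the sirtuin partners and did not pass under restriction (-0.31 ± 0.17, adjusted p = 0.28). Sirt2, a mostly cytosolic deacetylase, was nearest to a rise. Its lowest, median and highest signals were 854, 1236 and 1543 in CR+EX, 982, 1180 and 1787 in CR, 878, 912 and 1609 in AL+EX, and 757, 994 and 1426 in AL glands. The groups overlapped widely, yet 15 of 18 restricted animals lay above the unrestricted median of 969. The averaged difference was 0.21 ± 0.10 (95% interval 0.00 to 0.41, unadjusted p = 0.046, adjusted p = 0.20), and by run 0.36, 0.19, 0.21 and -0.01.

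Sirt3, the main deacetylase of mitochondria, was lowest in the sedentary, freely fed group. Its signals were 342, 442 and 612 in CR+EX, 374, 488 and 766 in CR, 371, 456 and 605 in AL+EX, and 228, 404 and 483 in AL glands (lowest, median and highest). The other 3 groups differed little from each other, and the 4 lowest of the unrestricted animals lay below every restricted one. CR exceeded AL by 0.34 ± 0.14 (unadjusted p = 0.017, adjusted p = 0.22) and AL+EX exceeded AL by 0.30 ± 0.14 (unadjusted p = 0.035, adjusted p = 0.75), 2 comparisons that share the AL animals. CR+EX differed from AL+EX by -0.04 ± 0.14. The interaction was -0.39 ± 0.20 (unadjusted p = 0.057, adjusted p = 1), and over both wheel states restriction gave 0.15 ± 0.10 (95% interval -0.05 to 0.35, adjusted p = 0.38). On the 22 arrays not high in B lymphocyte markers, CR exceeded AL by 0.23, AL+EX exceeded AL by 0.19, and the interaction was -0.25. By run, CR against AL gave 0.20, 0.56, -0.05 and 0.66, and AL+EX against AL gave 0.22, 0.54, -0.06 and 0.48. The interaction was -0.32, -0.71, 0.39 and -0.86, so run 3 did not show the pattern. Without CR animal 8, at 766, CR exceeded AL by 0.26.

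Sirt7, a nucleolar sirtuin linked to ribosomal RNA transcription, differed in the other direction. Its lowest, median and highest signals were 488, 563 and 681 in CR+EX, 498, 593 and 773 in CR, 490, 591 and 892 in AL+EX, and 543, 717 and 949 in AL glands. The 4 highest animals were unrestricted, and the ranges overlapped below them. The 7 highest animals, 4 AL, 1 AL+EX and 2 CR, were all among the 15 high in B lymphocyte markers. The averaged restriction difference was -0.16 ± 0.08 (95% interval -0.32 to 0.00, unadjusted p = 0.044, adjusted p = 0.19) and the averaged wheel difference was -0.15 ± 0.08 (unadjusted p = 0.062, adjusted p = 1). CR+EX differed from AL by -0.31 ± 0.11 (unadjusted p = 0.0067, adjusted p = 0.17). By run the restriction difference was 0.01, -0.12, -0.38 and -0.12. On the other 22 arrays the restriction difference was -0.09, the wheel difference -0.03 and that of CR+EX from AL -0.12, none of which passed.

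Sirt1, the nuclear deacetylase that acts on FoxO factors and on histones, showed the smallest averaged restriction difference of the 4 sirtuins. Its signals were 142, 245 and 299 in CR+EX, 167, 203 and 307 in CR, 163, 260 and 355 in AL+EX, and 130, 227 and 304 in AL glands. The groups overlapped over nearly their whole ranges. Restriction gave -0.11 ± 0.11 (95% interval -0.33 to 0.11, adjusted p = 0.57) and the wheel 0.15 ± 0.11 (95% interval -0.07 to 0.37, adjusted p = 1). The run of animal numbers went with larger differences, since all 8 arrays of run 1 had 291 to 355 and all 11 arrays of run 2 had 130 to 234. With the run as a block the wheel difference of Sirt1 was 0.17 ± 0.07 and did not pass (unadjusted p = 0.019, adjusted p = 0.81). Without the block it was, by run, 0.07, 0.11, 0.31 and 0.17.

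**Figure D4:**
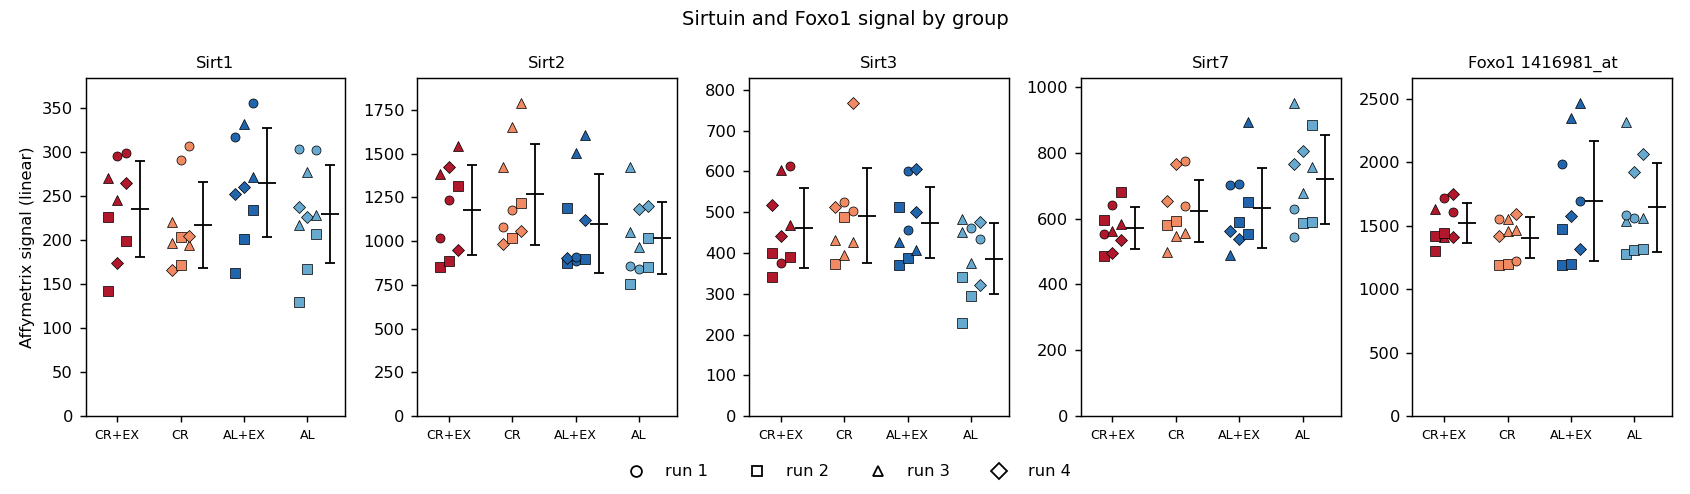
Linear signal of the 4 sirtuins and of the brightest Foxo1 probe set on each array, by group, with symbols for the run of animal numbers and bars for the mean and SD. The groups overlap in every panel. In the Sirt1 panel the circles of run 1 (291 to 355) lie above the squares of run 2 (130 to 234).

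The wheel comparison asks what access to a wheel did regardless of diet, with 18 wheel animals against 19 without. How much each animal ran did not enter the fit. By limma 0 of 9295 genes and 0 of 22626 probe sets passed (0%), with 266 genes (2.86%) at an unadjusted p under 0.05, among them 0 of the 7 members. Members' averaged wheel differences ran from -0.15 (Sirt7) to 0.15 (Sirt1), and that of Nampt was 0.04 ± 0.08 (95% interval -0.12 to 0.21). Wheel access within freely fed mice (AL+EX against AL) and within restricted mice (CR+EX against CR) also called 0 genes, with 600 (6.46%) and 83 (0.893%) at an unadjusted p under 0.05. At that level there were 1 of 7 members within freely fed mice, Sirt3, and 0 of 7 within restricted mice. The interaction of diet and wheel called 0 genes too, with 295 (3.17%) and 0 members at an unadjusted p under 0.05. Between single groups that differed in restriction, 0 of 7 members passed, against 0.441% of genes in CR against AL, 1.65% in CR+EX against AL+EX and 0.624% in CR+EX against AL.

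Around the members, 5 lists of genes were read in the averaged restriction contrast, in which 8.75% of all genes passed. Of 14 tested genes of NAD synthesis and use, 1 rose and 1 fell (median 0.04, beside -0.02 over all genes). Nadk, the kinase that turns NAD into NADP, had a median signal of 4348 in restricted and 3307 in unrestricted glands (0.39 ± 0.08, adjusted p = 0.0019). Parp2, a DNA damage sensor that consumes NAD, had 320 and 402 (-0.36 ± 0.08, adjusted p = 0.0031). Both kept their direction in all 4 runs, and Parp2 did not pass without the 15 arrays high in B lymphocyte markers. The 1 other Nadk probe set was higher without passing.

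Of 22 tested sirtuin partners and substrates, 1 rose and 1 fell, and both encode enzymes that make acetyl-CoA from acetate (median of the list 0.06). Acss2, the cytosolic enzyme and a Sirt1 substrate, was 2.01-fold higher (1.01 ± 0.20, adjusted p = 0.0013), with signals of 2250 to 7473 in restricted and 1114 to 5132 in unrestricted glands. Acss1, the mitochondrial enzyme and a Sirt3 substrate, was 1.78-fold lower (-0.83 ± 0.20, adjusted p = 0.0073), with 600 to 1788 in restricted and 770 to 4361 in unrestricted glands. The 2 enzymes of the same reaction thus moved in opposite directions, in all 4 runs, in all 11 alternative settings and in all 37 fits without 1 array. The 1 other Acss2 probe set rose too and passed, and both other Acss1 probe sets were lower without passing.

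Of 22 tested kinases and partners that control FoxO factors, 2 rose and 3 fell (median -0.09). The insulin receptor substrate gene Irs1 rose 1.45-fold (0.53 ± 0.12, adjusted p = 0.0054) and the regulatory subunit gene Pik3r1 rose 1.33-fold (0.41 ± 0.11, adjusted p = 0.016). Of the 2 other Pik3r1 probe sets, 1 was higher and 1 was not, and neither passed as higher. Crebbp, an acetyltransferase of FoxO proteins, fell 1.42-fold (-0.51 ± 0.11, adjusted p = 0.0038). Usp7, which removes their ubiquitin, fell 1.24-fold (-0.31 ± 0.07, adjusted p = 0.0036). The catalytic subunit gene Pik3ca fell 1.18-fold (-0.24 ± 0.07, adjusted p = 0.024) and was lower in 3 of 4 runs. Usp7 and Pik3ca each had 1 other probe set, which was lower without passing. Without the 15 arrays high in B lymphocyte markers Pik3r1, Crebbp and Pik3ca did not pass, and Usp7 and Pik3ca did not pass after median centring. With the mean of probe sets Pik3r1 and Pik3ca did not pass.

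Of 31 tested FoxO target genes, 1 rose and 3 fell (median -0.08). Rbl2, a pocket protein that holds cells in quiescence, fell 1.33-fold (-0.42 ± 0.09, adjusted p = 0.0022), and its 1 other probe set was lower without passing. Bcl2l11, which encodes the death protein Bim, fell 1.37-fold (-0.45 ± 0.11, adjusted p = 0.0063), and its 4 other probe sets were all lower, 1 of them past the test. By run, Bcl2l11 was lower in 3 of 4. Sesn3, a stress-induced sestrin, fell 1.26-fold (-0.33 ± 0.09, adjusted p = 0.022), a call lost in 4 of 11 settings. Prdx3, a mitochondrial peroxidase, rose 1.22-fold (0.29 ± 0.08, adjusted p = 0.023). It was lost after quantile normalization and without the 15 arrays.

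Clock genes held the most calls of the 5 lists, with 3 of 18 higher and 7 lower (median -0.22). Nfil3 rose by 1.19 ± 0.14, Cry1 by 0.53 ± 0.16 and Arntl, a core clock activator, by 0.42 ± 0.13 (adjusted p = 1.2e-06, 0.036 and 0.034). A link between the clock genes and the Nampt difference was not tested. Nr1d1 fell by 1.74 ± 0.23 and Dbp by 1.34 ± 0.18 (adjusted p = 5.3e-06 each), and Tef fell by 0.29 ± 0.07 (adjusted p = 0.0062). The Arntl and Cry1 calls were lost without the 15 arrays high in B lymphocyte markers and without the 5 with a high Gapdh ratio, and Tef was lost after median centring. Arntl also failed in 3 of 37 fits that left out 1 array (CR animals 8 and 9 and CR+EX animal 9, adjusted p up to 0.054). Cry1 failed in 11 of 37, without AL animals 4 and 8, AL+EX animals 2, 3 and 7, CR animal 9 or CR+EX animals 1, 2, 4, 6 and 8 (adjusted p up to 0.0577).

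**Figure D5:**
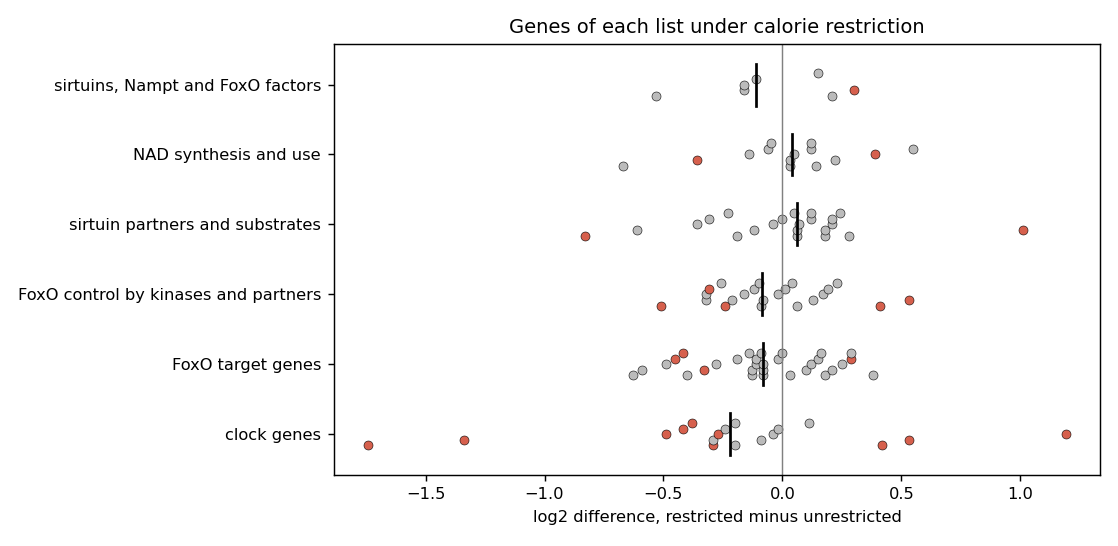
Log2 difference of log2(signal + 16), restricted minus unrestricted, of each tested gene in the members' list and in 5 lists around it. Red points passed at an adjusted p under 0.05, and the black bar is the list median. Clock genes lie farthest out, from -1.74 to 1.19, and 1 of 7 members is red.

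Likeness between members was read from animal to animal. Over 21 pairs of members and 37 arrays, Pearson r ran from -0.31 (Sirt3 with Foxo3) to 0.55 (Sirt1 with Foxo1), and after centring each gene on group and run from -0.27 (Sirt3 with Foxo1) to 0.45 (Foxo1 with Foxo3). Nampt with Sirt1 gave 0.02, and 0.05 after centring. Nampt with Foxo1 gave 0.03, and 0.40 after centring. These values share the arrays' scaling, runs and cell content.

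Genes most like each member were read over the same 37 arrays after that centring, as a description. Nampt was nearest to the vessel growth factor gene Vegfa (r = 0.72), Ranbp9 (0.68) and Pdk4 (0.67), the kinase that shuts off pyruvate dehydrogenase. Foxo3 was nearest to Scamp1 (0.77), St6galnac5 (0.76) and Gcnt2 (0.74), and Foxo1 to Srsf11 (0.76), Cdk8 (0.74) and Cbfa2t2 (0.73). Sirt1 was nearest to Hmgn5 (0.67), Trpm7 (0.66) and Kansl1l (0.65), and Sirt2 to Phpt1 (0.71), Syngr2 (0.71) and Exosc1 (0.68). Sirt3 was nearest to Hmgcs1 (0.65), Pam16 (0.63) and Cox20 (0.62), and Sirt7 to Cpne1 (0.68), Smc4 (0.68) and Hnrnpab (0.66). By Spearman rank correlation the Sirt7 values were lower, 0.6, 0.52 and 0.62.

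Without centring, so that runs and groups add to the likeness, other genes came first. They were Adhfe1 (0.69), Ucp3 (0.68) and Coq9 (0.68) for Nampt, and the respiratory chain genes Ndufa9 (0.68) and Ndufab1 (0.64) with the peroxisomal Ehhadh (0.65) for Sirt3. For Foxo3 they were Ctsl (0.81), Irx3 (0.80) and Mapk13 (0.79), for Foxo1 Mybbp1a (0.81), Nup88 (0.79) and Sf3b1 (0.78), and for Sirt1 Top2b (0.82), Gtpbp4 (0.80) and Matr3 (0.78). Sirt2 was nearest to Msrb1 (0.72), Hsd17b10 (0.66) and Cops3 (0.65), and Sirt7 to Ikbkb (0.65), Gzmm (0.63) and Cdipt (0.62). By Spearman rank correlation the Sirt7 values were lower, 0.49, 0.56 and 0.56. No member had another member among its 3 nearest under either reading.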

How the data were processed

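The authors deposited Affymetrix signal intensity values, linear, with 1 value for each probe set and array. GCOS 1 is the tool in the submitters' processing notes. The algorithm behind the signal is not given in the sources used here. Arrays came scaled to 1 level: the mean after trimming 2% of values at each end was 500.2 on every array, from the values. They were not scaled again.

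Analysis ran on log2(signal + 16), which understates changes of low signals. Symbols came from the platform annotation, updated through Entrez IDs (20380 probe sets named 1 gene, 691 several and 1555 none, besides 64 controls). The gene fit took the probe set with the highest mean for each of 12393 genes and left out the lowest 25%, under 6.71 on the log2 scale, which left 9295 genes. A second fit took all 22626 probe sets that were not controls, with no filter.

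Both fits used limma 3.58.1 in R 4.3.3 with group means over 37 arrays, 8 contrasts and eBayes with trend. Tests were two-sided, with Benjamini-Hochberg adjusted p-values within each contrast and a threshold of 0.05. Errors after ± are standard errors of that fit unless SD is written. Each array was taken as 1 animal, from the numbers in the titles. The number of arrays limits the precision. The fit was tested on simulated data. Alternatives were other offsets, scalings, filters, variance models and probe set choices, the run as a block, and fits without the doubted arrays or without each array in turn. Leaving out arrays in the fit of all probe sets was chosen after seeing the data.

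Animal numbers in the titles were split after every 24 numbers into 4 runs, every run with animals of each group. What a run stands for is not stated. Lower numbers within a run belong to AL animals and higher ones to CR+EX animals, so place in the run goes with group. The members and gene lists were chosen with earlier results of these data known. The text names every member with all its probe sets, up to 3 risen and 3 fallen genes of each pathway list by smallest p under restriction, and the 3 genes most like each member. No column of another sample was present.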

Additional observations from a re-analysis of the deposited data

Results flagged for a closer look

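Of 52 sets of values (13 probe sets in 4 groups), 3 held 1 animal whose gap to the nearest other exceeded Dixon's 95% limit, and chance flags about 1 in 20. Sirt3 in CR animal 8 had a signal of 766.3, with the next highest CR animal at 525.6. Nampt 1448607_at in CR+EX animal 7 had 131.2, with the next lowest at 263.4. On the brighter Nampt probe set the same array was also the lowest of its group, at 1918. The dim Foxo1 probe set 1456529_at in AL animal 3 had 83.6, with the next at 35.6, both under the level of 88.7 at which genes were left out.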

How the results depend on the processing

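The Nampt rise kept its direction in all 11 alternative settings (0.263 to 0.361) and in all 37 fits without 1 array (0.278 to 0.333). It failed the test only without the 15 arrays high in B lymphocyte markers (adjusted p = 0.0964). The Foxo3 fall on 1434832_at kept its direction in 5 settings (-0.456 to -0.280) and failed only after median centring. Averaging probe sets called 2 members under restriction, since Foxo3 then passed (-0.30, adjusted p = 0.046). In the gene fit no member passed in another contrast under these settings. Over all probe sets with the run as a block, Foxo3 1434832_at (adjusted p = 0.024) and Foxo1 1416983_s_at (0.026) passed in CR against AL. The dim probe sets Foxo1 1456529_at and Foxo3 1450236_at had signals under the level at which genes were left out. Each scaling moved the median of all genes by less than 0.1. The cause of the changes below was not tested.

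Counts of genes called moved most with the run as a block: 1743 under restriction averaged over wheel states, 573 in CR against AL, 558 in CR+EX against AL+EX, 347 in CR+EX against AL and 2707 probe sets. Without the 15 arrays high in B lymphocyte markers they were 497, 9, 59 and 3 genes. Without the 5 arrays with a high Gapdh ratio, CR against AL called 10 and CR+EX against AL 18. In CR against AL, median centring called 13, quantile normalization 24, no low filter 19, leaving out the lowest 50% 69 and no variance trend 17. Median centring called 35 in CR+EX against AL. Leaving out 1 array gave 611 to 960 genes under averaged restriction, 9 (without CR animal 5) to 150 (without CR animal 1) in CR against AL, 59 (without CR+EX animal 4) to 239 (without AL+EX animal 5) in CR+EX against AL+EX, and 26 (without CR+EX animal 6) to 105 (without CR+EX animal 5) in CR+EX against AL.

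Among the values reported, those that turned their sign were all ones that did not pass. Without the arrays high in B lymphocyte markers they were Foxo3 under the wheel (0.068) and in AL+EX against AL (0.254), the interactions of Nampt (-0.206), Foxo1 (-0.004) and Foxo3 (-0.372), Foxo1 in CR+EX against AL (0.012), Sirt7 (0.011) and Nampt (-0.035) in CR+EX against CR, Foxo3 1434832_at under the wheel (0.05), in AL+EX against AL (0.08) and in the interaction (-0.04), and under restriction Foxo1 1416982_at (0.135) and 1456529_at (0.056). Without the high Gapdh arrays they were Foxo3 under the wheel (0.051) and in AL+EX against AL (0.14), the interactions of Nampt (-0.068), Foxo1 (-0.009) and Foxo3 (-0.178), and Sirt1 in CR against AL (0.095) and in CR+EX against CR (-0.002). With probe sets averaged they were the Nampt interaction (-0.074) and Foxo1 in CR+EX against AL+EX (0.004) and in AL+EX against AL (-0.078). After median centring they were Sirt3 in CR+EX against AL+EX (0.034), Nampt (-0.009) and Foxo1 (-0.006) in AL+EX against AL, and under restriction Foxo3 1450236_at (0.018) and Foxo1 1456529_at (0.028). Quantile normalization turned Sirt3 in CR+EX against AL+EX (0.008), and the run block turned Sirt2 under the wheel (0.046).

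Leaving out 1 array gave -0.038 to 0.031 for Sirt2 and -0.182 to 0.012 for Foxo3 under the wheel. The interaction ran from -0.007 to 0.106 for Nampt and -0.178 to 0.210 for Foxo3. In CR+EX against AL+EX, Sirt3 ran from -0.098 to 0.004, and in CR+EX against AL, Sirt1 from -0.045 to 0.113. In AL+EX against AL the ranges were -0.016 to 0.076 for Nampt, -0.051 to 0.079 for Foxo1 and -0.287 to 0.100 for Foxo3, and in CR+EX against CR -0.196 to 0.045 for Foxo3. Under restriction Foxo3 1450236_at ran from -0.083 to 0.017 and Foxo1 1456529_at from -0.092 to 0.049. No paired analysis was possible because the replicate numbers were given in accession order and pair no animals.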
